A study of Mus musculus with 4 samples.

Results

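The 9 annexin genes Anxa1 to Anxa8 and Anxa11 were followed in cultured mouse satellite cells after siRNA against LncMyoD or control siRNA. Satellite cells are the stem cells of muscle. These cultures held little RNA of the satellite cell factor Pax7 and much of the myogenic gene Myog, as given below. The annexin genes were found by gene symbol among the 54446 rows of the deposited table, and all 9 had a row. Of these, Anxa1 was selected on its FPKM, higher in the knockdown libraries than in the controls, so its difference between the groups is given as a description with no test. The other 8 were taken as members of the same family, and their differences were tested.

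Both groups were hindlimb satellite cells of C57BL/6 mice grown in F10 medium with 10% HS and P/S, which the labels do not spell out. The 2 LncMyoD knockdown samples were harvested after 48 h of siRNA against LncMyoD, a lncRNA next to the myogenic gene Myod1, and the 2 control samples received control siRNA. For the controls the written protocol names the LncMyoD siRNA too, so membership of that group was taken from the title, description and treatment tag. Separate cultures or animals are not stated for the replicates, so p-values here measure the spread of these 4 libraries and that spread may be technical. Of the rows, 0 carried the name LncMyoD, and the target's own level was not analysed.

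Annexins are cytosolic proteins that bind negatively charged phospholipid when calcium is present. When the membrane of a muscle fibre tears, calcium enters and several annexins gather at the wound together with dysferlin, forming a cap under which the membrane reseals. Some also work as partners of small EF-hand proteins of the S100 family, as regulators of vesicle traffic, or, in the case of annexin A1, as a secreted signal in inflammation.

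The promoters of the 2 most abundant members, Anxa1 and Anxa2, are shown first. Both windows run from 250 bases before the annotated start to 50 bases after it, are given 5′ to 3′ on the gene's strand, and come from RefSeq on GRCm38.p6. The Anxa1 window is chr19:20390622-20390921 on the minus strand and the Anxa2 window is chr9:69453433-69453732 on the plus strand. Capitals mark TATAAA, the core of a TATA box, and CANNTG, the E-box bound by Myod1 and its relatives.
Anxa1: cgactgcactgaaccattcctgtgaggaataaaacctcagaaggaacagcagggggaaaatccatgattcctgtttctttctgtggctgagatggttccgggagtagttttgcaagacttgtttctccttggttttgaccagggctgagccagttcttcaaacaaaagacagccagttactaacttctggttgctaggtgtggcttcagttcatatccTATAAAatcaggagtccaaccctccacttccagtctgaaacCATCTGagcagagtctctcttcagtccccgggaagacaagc
Anxa2: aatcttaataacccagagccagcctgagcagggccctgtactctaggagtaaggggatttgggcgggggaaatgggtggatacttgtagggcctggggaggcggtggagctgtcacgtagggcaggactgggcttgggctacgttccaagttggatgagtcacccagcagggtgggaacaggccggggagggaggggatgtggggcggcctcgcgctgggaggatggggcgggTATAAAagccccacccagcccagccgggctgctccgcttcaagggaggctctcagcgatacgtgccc

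TATAAA was searched on both strands, as TATAAA or TTTATA, and CANNTG reads the same way on both strands. The marked motifs do not overlap each other. In both windows TATAAA lies just before the RefSeq start, and the Anxa1 window also holds a CANNTG, spelled CATCTG, just after it. The GENCODE gene spans given below begin upstream of these starts, at 20390944 for Anxa1 and 69453620 for Anxa2. Both TATAAA copies therefore lie inside those spans. There were 9 windows for 7 members, since Anxa4 and Anxa7 had 2 each. TATAAA on either strand was in 2 of the 9, those of Anxa1 and Anxa2, and in 13.6% of all 32851 promoter windows. CANNTG was in 6 of the 9 and in 72.3% of all windows. The 6 were those of Anxa1, Anxa5 and Anxa11, both of Anxa7 and 1 of Anxa4. A match describes these letters and is not shown to be a bound site. Anxa3 and Anxa6 had no entry.

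Levels are given as FPKM, fragments scaled to transcript length and to library size, so that genes of different length can be set side by side. Annexin levels fell into 3 tiers: 4 members had a mean above 200 FPKM, 3 lay from 10 to 50 FPKM and 2 lay under 5 FPKM. The highest was Anxa2, with a mean of 505 FPKM over the 4 libraries, and Anxa11 was the lowest, with 1.72 FPKM. In knockdown cells the order was Anxa2, Anxa1, Anxa5, Anxa6, Anxa4, Anxa3, Anxa7, Anxa8 and Anxa11, and it was the same in control cells. Neighbours in that order had ranges that did not overlap within a group, with 1 exception. Anxa2 and Anxa1 overlapped in knockdown cells, where their means differed 1.06-fold, and were apart in control cells, where Anxa2 was 1.46-fold higher.

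**Figure D1:**
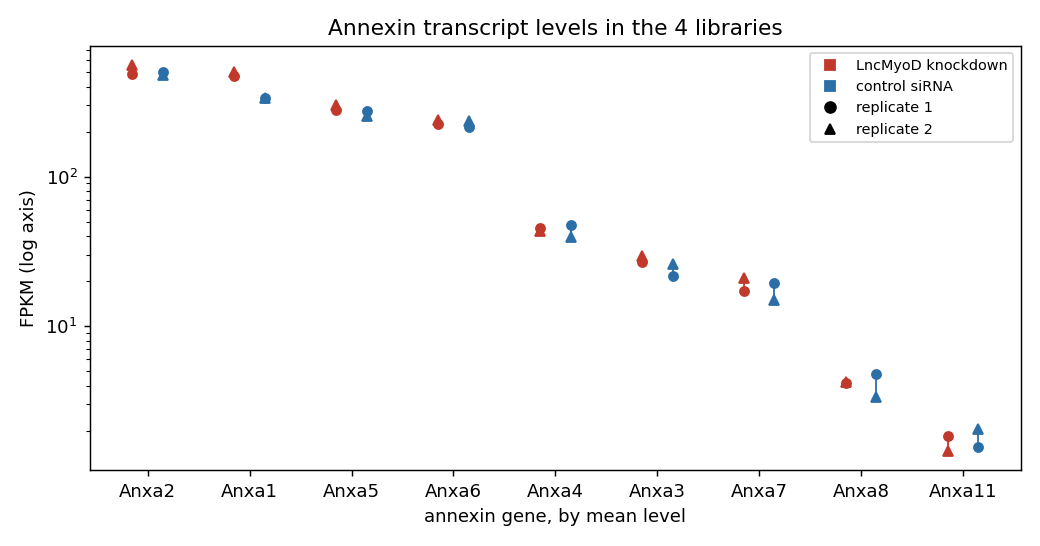
FPKM of the 9 annexin genes on a log axis, in LncMyoD knockdown (red, left of each pair) and control siRNA libraries (blue, right), with circles for replicate 1 and triangles for replicate 2. Anxa1 stands at 474 and 505 FPKM in knockdown against 337 and 336 FPKM in control, and most other members overlap between the groups.

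The 9 members together held 0.489% and 0.530% of all FPKM in knockdown libraries 1 and 2, and 0.440% and 0.433% in control libraries 1 and 2. Their summed level averaged 1627 ± 106 FPKM in knockdown cells and 1407 ± 15.2 FPKM in control cells (SD, n = 2 each). Without Anxa1 the other 8 summed to 1138 ± 84.1 FPKM in knockdown cells and 1071 ± 14.97 FPKM in control cells (SD, n = 2 each). The knockdown sums of these 8 were 1078 and 1197 FPKM and the control sums 1082 and 1060 FPKM, so the groups overlapped once Anxa1 was left out. Anxa1 made up 30.5% and 29.7% of the annexin total in knockdown cells, against 23.7% and 24.1% in control cells.

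Anxa1 (ENSMUSG00000024659) lies on chromosome 19 from 20373428 to 20390944 on the minus strand of GRCm38. It has 8 annotated transcripts of 217 to 1674 bases, so its FPKM depends on how reads were shared among them. Annexin A1, once called lipocortin, is induced by glucocorticoids, restrains inflammation and takes part in the repair of muscle membranes. It had 474 and 505 FPKM in knockdown replicates 1 and 2, against 337 and 336 FPKM in control replicates 1 and 2. Both knockdown libraries were high and both controls low, with no overlap. The lowest knockdown value exceeded the highest control value by 137 FPKM, while the libraries of a group lay 30.8 FPKM apart in knockdown and 0.3595 FPKM apart in control. The means were 489 ± 21.8 FPKM in knockdown cells and 336 ± 0.254 FPKM in control cells (SD, n = 2 each), a 1.45-fold difference. By limma on log2(FPKM + 1), the scale of all fold changes here, the log2 fold change was 0.54 ± 0.078 (SE). That standard error borrows spread from other genes of like level. These values are the ones for which the gene was noted, so no test is given. Among all rows, Anxa1 stood at place 68 and 60 by FPKM in the knockdown libraries and at place 106 in both controls.

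Anxa2 (ENSMUSG00000032231; chromosome 9, 69453620 to 69491795, plus strand) encodes annexin A2, which pairs with S100a10 and links membranes to actin. It had 482 and 556 FPKM in knockdown cells, against 498 and 482 FPKM in control cells. Knockdown replicate 2 was the high library and the groups overlapped. The log2 fold change was 0.08 ± 0.094 (SE), with a 95% interval of -0.15 to 0.31 and an adjusted p of 0.888 by limma. Within each library the ratio of Anxa1 to Anxa2 was 0.983 and 0.908 in knockdown replicates 1 and 2, against 0.675 and 0.698 in control replicates 1 and 2. The ratio holds the Anxa1 values for which the gene was noted and is given as a description.

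**Figure D2:**
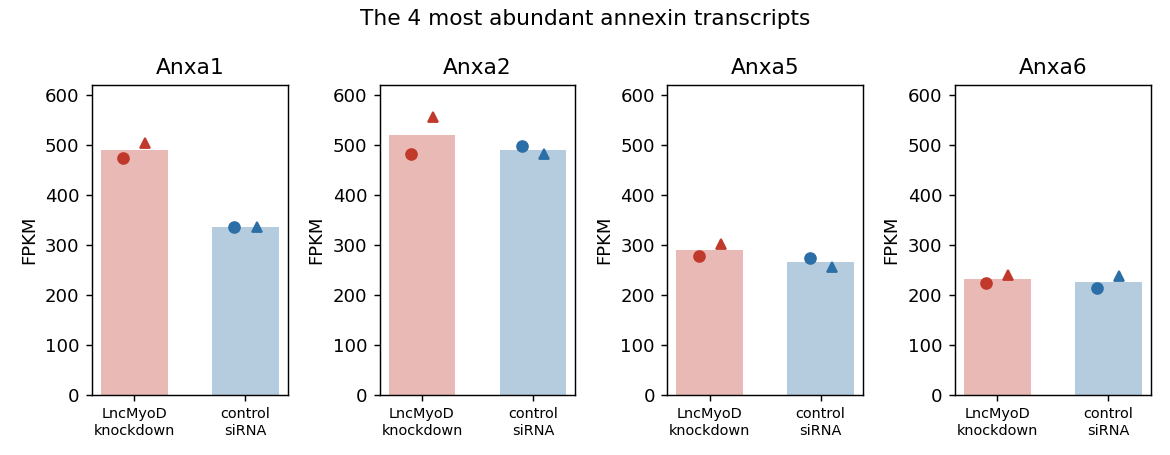
FPKM of the 4 most abundant annexins on a common linear axis that starts at 0, with bars for group means, circles for replicate 1 and triangles for replicate 2, knockdown on the left. For Anxa1 the knockdown libraries stand 137 FPKM or more above the controls, whereas Anxa2 and Anxa6 overlap between the groups.

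Anxa5 (ENSMUSG00000027712; chromosome 3, 36448923 to 36475894, minus strand) encodes annexin A5, the protein used to stain phosphatidylserine on dying cells, which forms ordered arrays on torn membranes. It had 278 and 302 FPKM in knockdown cells, against 274 and 256 FPKM in control cells. Both knockdown libraries were above both controls, by 3.83 FPKM, a gap smaller than the 24.5 FPKM between the knockdown libraries and the 17.9 FPKM between the controls. The log2 fold change was 0.13 ± 0.089 (SE), with a 95% interval of -0.09 to 0.35 and a limma adjusted p of 0.791.

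Anxa6 (ENSMUSG00000018340; chromosome 11, 54979108 to 55033445, minus strand) encodes the annexin with a doubled core, a component of the repair cap of muscle fibres. It had 223 and 240 FPKM in knockdown cells, against 214 and 237 FPKM in control cells. The values interleaved, and the log2 fold change was 0.04 ± 0.093 (SE; limma adjusted p 0.950). Its 95% interval ran from -0.19 to 0.27.

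The middle tier held Anxa4, Anxa3 and Anxa7. Anxa4 (ENSMUSG00000029994; chromosome 6, 86736840 to 86793584, minus strand), known from epithelial membranes, had 45.2 and 43.1 FPKM in knockdown cells, against 47.6 and 39.6 FPKM in control cells. Both knockdown values lay between the controls, with a log2 fold change of 0.02 ± 0.13 (SE; limma adjusted p 0.980).

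Anxa3 (ENSMUSG00000029484; chromosome 5, 96793339 to 96845966, plus strand), an annexin known from neutrophil granules, had 26.8 and 29.5 FPKM in knockdown cells, against 21.7 and 25.9 FPKM in control cells. The groups did not overlap, by a gap of 0.814 FPKM, while the knockdown libraries lay 2.75 FPKM apart and the controls 4.25 FPKM. Its log2 fold change of 0.23 ± 0.14 (SE) had a 95% interval of -0.11 to 0.58 and a limma adjusted p of 0.760, the lowest of the 8 tested members.

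Anxa7 (ENSMUSG00000021814; chromosome 14, 20455260 to 20480133, minus strand), also called synexin and bound by the EF-hand protein sorcin, had 17.1 and 20.98 FPKM in knockdown cells, against 19.3 and 14.9 FPKM in control cells. The groups overlapped, and the log2 fold change was 0.15 ± 0.18 (SE; limma adjusted p 0.891). It has 11 annotated transcripts of 364 to 2904 bases, the widest span of lengths among the 9 members. Its FPKM, like that of Anxa1, depends on how reads were shared among transcripts.

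The low tier held Anxa8 and Anxa11. Anxa8 (ENSMUSG00000021950; chromosome 14, 34085981 to 34100571, plus strand), linked to endosomes, had 4.19 and 4.23 FPKM in knockdown cells, against 4.78 and 3.38 FPKM in control cells. The knockdown values lay between the controls, with a log2 fold change of 0.05 ± 0.21 (SE; limma adjusted p 0.971). Anxa11 (ENSMUSG00000021866; chromosome 14, 25842156 to 25886804, plus strand), which tethers RNA granules to lysosomes, had 1.83 and 1.46 FPKM in knockdown cells, against 1.55 and 2.04 FPKM in control cells. It was the 1 member with a negative log2 fold change, -0.08 ± 0.23 (SE; limma adjusted p 0.958), with a 95% interval of -0.63 to 0.47 and overlapping groups.

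The low tier rested on the fewest reads. From the step between values of single-exon genes, Anxa11 rested on about 97.6 to 109 reads of 150 nt in knockdown libraries and 98.5 to 129.6 in controls, if all came from its shortest annotated transcript. These are estimates, since whole read counts are not in the table. Anxa11 shares 2.73% of its exonic bases with the antisense gene Anxa11os, and the sources used here give no strand setting. Anxa2, Anxa3 and Anxa4 share 1.62% to 3.07% of their exonic bases with another annotated gene, and Anxa1, Anxa5, Anxa6, Anxa7 and Anxa8 share none.

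**Figure D3:**
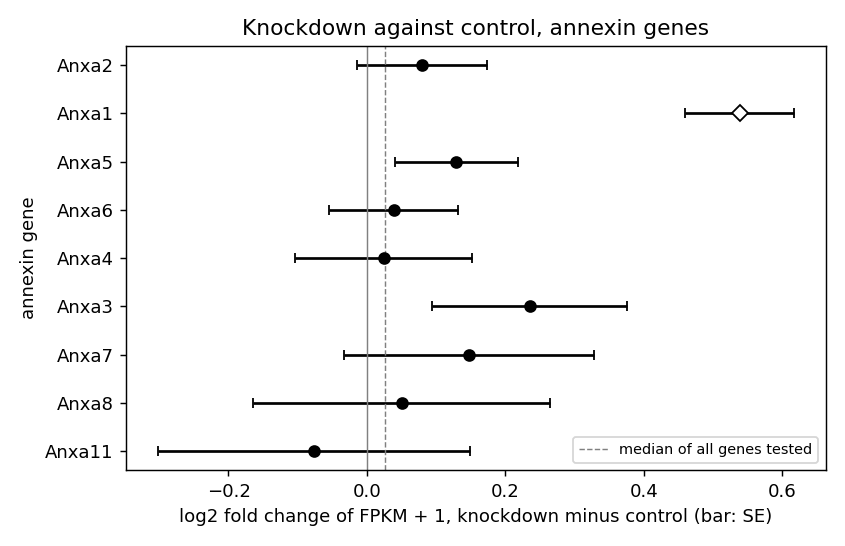
Log2 fold change, knockdown minus control, of the 9 annexin genes with their standard errors, ordered by mean level from the top. The open diamond marks Anxa1, which was chosen for this difference, at 0.54, and the dashed line is the median of all genes tested, 0.026.

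All 9 members passed the filter of a mean of at least 1 FPKM. Of the 8 tested members, 0 passed an adjusted p of 0.05 by limma, and 0 had an unadjusted p under 0.05. Over all 10900 genes tested, 0.055% passed the adjusted threshold and 7.08% had an unadjusted p under 0.05. In 2 of the 8, Anxa3 and Anxa5, both knockdown libraries lay above both controls, and in 0 both lay below. Over all genes tested, 22.1% lay above in this way and 16.3% lay below. The log2 fold change was above 0 in 7 of the 8, against 54.8% of all genes. The median of the 8 was 0.06, beside 0.026 for all genes tested. With 1 library left out it was 0.14 (knockdown replicate 1), 0.03 (knockdown replicate 2), 0.13 (control replicate 1) or 0.05 (control replicate 2). With 2 samples against 2, an exact two-sided permutation test of a single gene cannot give a p below 0.333. Missing the threshold does not show that levels were equal.

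Knockdown replicate 2 was the highest of the 4 libraries for 6 of the 9 members, Anxa1 among them, and control replicate 2 was the lowest for 6. Control replicate 2 was nearly tied with control replicate 1 for Anxa1 (336.304 against 336.663 FPKM). For Anxa2 it was nearly tied with knockdown replicate 1 (481.821 against 482.212 FPKM). The matching shares over all genes were not computed, so these counts describe the members only. The median ratio of each library to the mean over all genes was 1.03 in knockdown replicate 2, 1.00 in knockdown replicate 1 and 0.996 in both controls. Relative to the control mean, Anxa1 had a log2 difference of 0.49 in knockdown replicate 1 and 0.58 in knockdown replicate 2. For Anxa2 these differences were -0.02 and 0.18, and for Anxa7 they were 0.01 and 0.29. After the libraries were scaled by these ratios, the log2 fold change of Anxa1 was 0.51.

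The other 4 rows whose symbol begins with Anxa were below the filter and were not tested. Anxa9 had 0.05001 and 2.16 FPKM in knockdown cells, against 0.957 and 0.718 FPKM in control cells. Anxa10 was listed at 0 in every library. Anxa13 had 0.468 and 0.293 FPKM in knockdown cells, and in control cells it was listed at 0 in replicate 1 and had 0.110 FPKM in replicate 2. Anxa11os had 0.0488 and 0.125 FPKM in knockdown cells, against 0.490 and 0.135 FPKM in control cells.

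The cells carried markers of the muscle lineage at high level. The 10 muscle markers summed to 5678 and 5070 FPKM in knockdown cells, against 6798 and 6441 FPKM in control cells. Most of each sum was Myog, with 3406 and 2793 FPKM in knockdown cells, against 4196 and 3931 FPKM in control cells. All 9 muscle markers that were tested had a negative log2 fold change, and in 5 both knockdown libraries lay below both controls. Des, Cdh15, Myh3 and Chrna1 overlapped between the groups. By limma 0 passed the adjusted threshold, and 2, Myog and Mymk, had an unadjusted p under 0.05. Over all genes tested, 16.3% lay below in this way, 7.08% had an unadjusted p under 0.05 and 54.8% had a log2 fold change above 0. Pax7, the satellite cell factor, stood at 1.40 and 0.625 FPKM in knockdown cells, against 1.02 and 0.859 FPKM in control cells. Its mean fell below the filter, whereas Chrna1, Mymk and Myh3 had means of 934, 335 and 64.1 FPKM over the 4 libraries. The 10 markers of macrophages and neutrophils summed to 3.40 and 2.46 FPKM in knockdown cells, against 2.93 and 2.27 FPKM in control cells, and Ptprc, Adgre1, Itgam and Ly6g were listed at 0 in every library. The 10 fibro-adipogenic markers summed to 73.9 and 62.8 FPKM in knockdown cells, against 79.0 and 88.0 FPKM in control cells, nearly all of it from Islr, Col3a1 and Col1a1, and Pdgfra reached 0.160 FPKM in 1 control library and was listed at 0 in the other 3. The 10 smooth muscle and pericyte markers summed to 2782 and 2706 FPKM in knockdown cells, against 3322 and 3146 FPKM in control cells, nearly all of it from Acta2. Tagln came next, with a mean of 127 FPKM over the 4 libraries, and Mcam and Cspg4 had 1.39 and 1.25 FPKM. Kcnj8 was at 0 throughout, and Myh11, Rgs5, Abcc9, Cnn1 and Pdgfrb had means of 0.011, 0.043, 0.137, 0.273 and 0.357 FPKM. The 8 endothelial markers summed to 6.90 and 6.64 FPKM in knockdown cells, against 6.11 and 8.45 FPKM in control cells, with Kdr at 0 throughout. The 8 Schwann and glial markers summed to 19.9 and 45.6 FPKM in knockdown cells, against 47.4 and 42.5 FPKM in control cells, nearly all of it from Pmp22, with S100b and Cdh19 at 0 throughout. The sums of the muscle and smooth muscle lists, mostly Myog and Acta2, were lower in both knockdown libraries while Anxa1 was higher. Within the fibro-adipogenic list Islr and Col1a1 were lower in both knockdown libraries, whereas Col3a1 had 27.4 and 29.4 FPKM in knockdown cells, against 23.0 and 24.4 FPKM in control cells. The part of these markers in the Anxa1 difference was not tested, and in bulk RNA fewer cells of a type cannot be told apart from less RNA per cell.

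The first group of genes around the annexins was their EF-hand partners, the S100 proteins, sorcin, ALG-2 and its relatives, with the scaffold Ahnak. Of 12 listed genes 11 were tested, and 0 passed the adjusted threshold by limma (2 at an unadjusted p under 0.05), with 3 in which both knockdown libraries lay above both controls and 0 below. Over all genes these shares were 22.1% and 16.3%, and 7.08% had an unadjusted p under 0.05. The median log2 fold change of the 11 was 0.09, beside 0.026 for all genes. Leaving out knockdown replicate 1 gave 0.18, leaving out knockdown replicate 2 gave -0.06 and leaving out control replicate 2 gave 0.16. S100a11, the partner of annexin A1, had 273 and 388 FPKM in knockdown cells, against 292 and 287 FPKM in control cells, so knockdown replicate 2 alone stood high. S100a10, the partner of annexin A2, had 179 and 213 FPKM in knockdown cells, against 165 and 185 FPKM in control cells. These groups overlapped, as did those of both other abundant S100 genes.

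S100a4, a calcium-binding protein of motile cells, had 193 and 275 FPKM in knockdown cells, against 260 and 232 FPKM in control cells. S100a6, calcyclin, had 64.5 and 99.1 FPKM in knockdown cells, against 98.8 and 77.2 FPKM in control cells. The 2 partners with the lowest p were less abundant. S100a1, a regulator of calcium release in muscle, had 21.3 and 27.2 FPKM in knockdown cells, against 18.3 and 17.0 FPKM in control cells, with a log2 fold change of 0.43 ± 0.16 (SE; limma adjusted p 0.669). S100a13 had 24.9 and 25.9 FPKM in knockdown cells, against 18.8 and 20.02 FPKM in control cells, with a log2 fold change of 0.37 ± 0.12 (SE; limma adjusted p 0.645). In both genes the groups did not overlap. Ahnak, the giant scaffold that binds the pair of annexin A2 and S100a10, had 6.74 and 6.78 FPKM in knockdown cells, against 5.81 and 5.79 FPKM in control cells (limma adjusted p 0.833).

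Of 33 listed genes of the other membrane repair machinery, 32 had a row, Vamp7 having none under that symbol, and 27 were tested. Of the 27, 0 passed the adjusted threshold by limma and 2 had an unadjusted p under 0.05, beside 7.08% of all genes. In 6 both knockdown libraries lay above both controls and in 5 below, beside 22.1% and 16.3% of all genes. The median log2 fold change was 0.06. Leaving out knockdown replicate 2 gave 0.0022, leaving out control replicate 1 gave 0.03 and leaving out control replicate 2 gave -0.03. Dysf, dysferlin, the calcium sensor of repair, had 2.67 and 3.01 FPKM in knockdown cells, against 3.11 and 2.91 FPKM in control cells. Its relative Myof, myoferlin, had 8.35 and 9.21 FPKM in knockdown cells, against 9.37 and 7.25 FPKM in control cells. Both ferlins overlapped between the groups.

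Trim72, which encodes the repair protein MG53, had 1.78 and 1.52 FPKM in knockdown cells, against 2.72 and 2.82 FPKM in control cells. Both knockdown libraries were low, with a log2 fold change of -0.51 ± 0.20 (SE; limma adjusted p 0.692). Bin1, an organiser of membrane tubules, had 190 and 191 FPKM in knockdown cells, against 230 and 214 FPKM in control cells, with a log2 fold change of -0.22 ± 0.085 (SE; limma adjusted p 0.692). Both genes lay opposite in sign to Anxa1.

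Among genes of caveolae, the small pits of the cell surface, Cav3, the muscle caveolin gene, had 45.6 and 24.6 FPKM in knockdown cells, against 48.5 and 37.1 FPKM in control cells, and overlapped. Cavin4, a muscle coat protein of caveolae, had 134 and 110 FPKM in knockdown cells, against 139 and 141 FPKM in control cells, with a log2 fold change of -0.20 (limma adjusted p 0.760). Of the other caveolar genes in the list, chosen here after their values were seen, Cavin1 had a log2 fold change of 0.27, Cav1 of 0.29 and Ehd2 of 0.61, so signs were mixed.

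Extracellular partners were mostly low. The formyl peptide receptors Fpr1, Fpr2 and Fpr3, the family through which secreted annexin A1 acts, were listed at 0 in every library. Of the 9 genes of the plasminogen system and these receptors 4 were tested, and 0 passed the adjusted threshold by limma. An unadjusted limma p under 0.05 was found for 2, beside 7.08% of all genes. Without overlap, 1 lay above and 1 below, beside 22.1% and 16.3% of all genes. The median log2 fold change of the 4 was -0.09. Leaving out knockdown replicate 1 gave 0.01 and leaving out knockdown replicate 2 gave -0.18. The median was 0.01 with no filter, 0.10 with the filter at 5 FPKM and -0.15 with quantile normalization. Plaur, the urokinase receptor, had 33.2 and 33.9 FPKM in knockdown cells, against 20.6 and 22.5 FPKM in control cells, with a log2 fold change of 0.62 ± 0.12 (SE; limma adjusted p 0.523). Its ligand Plau, urokinase, had 8.60 and 5.49 FPKM in knockdown cells, against 6.94 and 5.80 FPKM in control cells, and overlapped. Serpine2, an inhibitor of serine proteases, had 3.87 and 5.60 FPKM in knockdown cells, against 7.54 and 9.43 FPKM in control cells, with a log2 fold change of -0.74 ± 0.22 (SE; limma adjusted p 0.625).

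Annexin A1 was first described as an inhibitor of phospholipase A2, the enzyme that frees the precursor of prostaglandins. Of 15 genes of phospholipase A2 and eicosanoid synthesis 8 were tested, and 0 passed the adjusted threshold by limma. An unadjusted limma p under 0.05 was found for 1, beside 7.08% of all genes. Without overlap, 2 lay above and 3 below, beside 22.1% and 16.3% of all genes. The median log2 fold change of the 8 was 0.03. Leaving out knockdown replicate 1 or control replicate 1 gave -0.17 or -0.14, and leaving out knockdown replicate 2 or control replicate 2 gave 0.10 or 0.11. It was also below 0 with no filter, with the filter at 5 FPKM and with quantile normalization, at -0.01, -0.02 and -0.0031. Ptgis, prostacyclin synthase, had 10.0 and 8.69 FPKM in knockdown cells, against 18.9 and 15.1 FPKM in control cells, with a log2 fold change of -0.79 ± 0.17 (SE; limma adjusted p 0.523). Pla2g15, a lysosomal phospholipase, had 2.53 and 2.63 FPKM in knockdown cells, against 1.34 and 1.80 FPKM in control cells (limma adjusted p 0.698). The abundant members Ptges3 and Lta4h had log2 fold changes of 0.16 and -0.02.

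Genes that respond to glucocorticoids, the hormones known to induce Anxa1, gave 12 tested genes of 14. Of the 12, 0 passed the adjusted threshold by limma and 1 had an unadjusted p under 0.05, beside 7.08% of all genes. In 4 both knockdown libraries lay above both controls and in 1 below, beside 22.1% and 16.3% of all genes. The median log2 fold change was 0.09. Leaving out knockdown replicate 1 or 2 gave 0.18 or 0.05, and leaving out control replicate 1 or 2 gave 0.03 or 0.22. Nr3c1, the glucocorticoid receptor, had 1.81 and 2.67 FPKM in knockdown cells, against 1.36 and 1.64 FPKM in control cells (limma adjusted p 0.771). The metallothionein gene Mt1 had 22.4 and 24.9 FPKM in knockdown cells, against 14.2 and 16.7 FPKM in control cells, with a log2 fold change of 0.59 ± 0.14 (SE; limma adjusted p 0.566). Mt2, another metallothionein gene, had 19.0 and 22.0 FPKM in knockdown cells, against 16.6 and 16.1 FPKM in control cells (limma adjusted p 0.698). The most abundant of the list, Errfi1, and the kinase gene Sgk1 had log2 fold changes of 0.07 and -0.15.

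**Figure D4:**
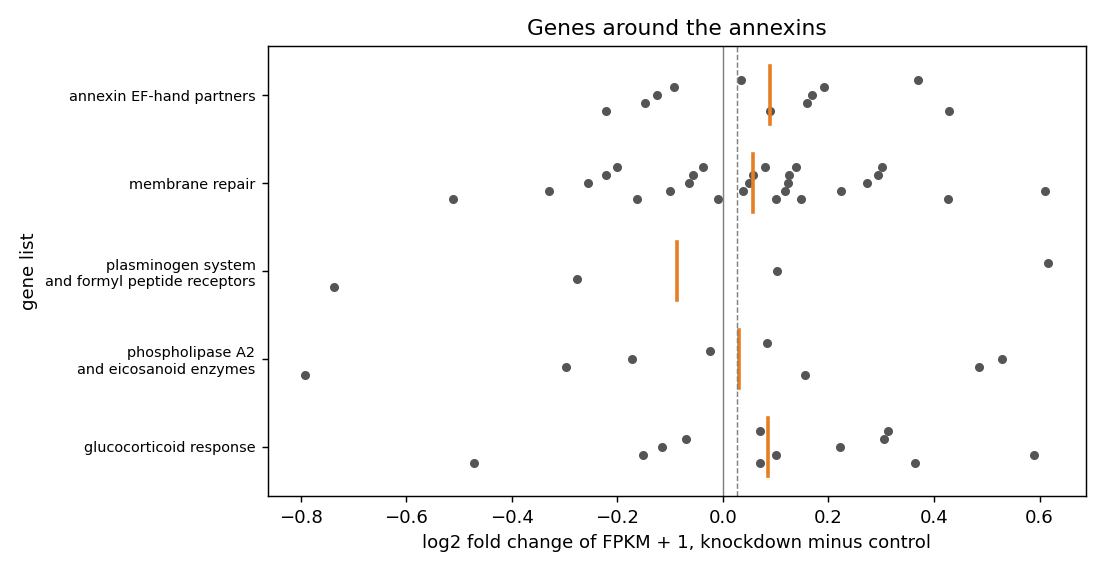
Log2 fold change, knockdown minus control, of each tested gene in the 5 lists around the annexins, with 1 dot per gene, an orange bar at the list's median and a dashed line at the median of all genes tested. The medians run from -0.09 to 0.09, and dots lie on both sides of 0 in every list.

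The genes whose pattern was most like that of Anxa1 were found by Euclidean distance between log2(FPKM + 1) values of the 4 samples, each gene centred on its own mean, among 6372 other genes whose mean reached 5 FPKM. The nearest were Ppp1r8, which encodes a nuclear inhibitor of protein phosphatase 1, the ribonuclease gene Rnase4, Fblim1, which encodes a filamin-binding adapter, the amino acid transporter gene Slc38a2 and Lxn, which encodes latexin. Their distances ran from 0.0362 for Ppp1r8 to 0.0829 for Lxn. Slc38a2 had 27.3 and 28.7 FPKM in knockdown cells, against 18.7 and 17.7 FPKM in control cells, and Lxn had 21.6 and 23.7 FPKM in knockdown cells, against 14.4 FPKM in both controls. With 4 samples this distance describes likeness of a step between the groups. None of the 5 is an annexin or belongs to the lists above.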

How the data were processed

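Polyadenylated RNA of 4 samples was sequenced as paired reads of 150 nt, from cDNA made with the SMART-Seq v4 kit, per the labels' protocols. The build mm10 and the tools StringTie 1.3.3, HISAT2 2.1.0, Trimmomatic 0.36, SAMtools 1.3 and bcl2fastq 2.19 are listed in the submitters' processing notes, without roles. Annotation release and strandedness: not given in the sources used here. The authors deposited 1 FPKM value per gene and library, a unit read from the values: totals were 317223 and 321101 in knockdown and 322496 and 322310 in control libraries. In single-exon genes, the product of FPKM and length was set against multiples of a common step, chosen per library as the best fitting. The product was a whole multiple in 75.95% to 77.8% of 665 to 758 values per library (tolerance 0.1 of a step). Chance gives 20% for a step fixed in advance and more for the best of a search. The steps gave a depth ratio of up to 1.12 between libraries. Whole reads were not recovered for genes of several exons, so no count model was used.

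Genes whose mean over the 4 samples reached 1 FPKM were fitted with limma 3.58.1 in R 4.3.3 on log2(FPKM + 1), with a mean-variance trend, knockdown minus control. Tests were two-sided, adjusted by Benjamini-Hochberg over all 10900 genes, with a threshold of 0.05. Residual degrees of freedom were 2 and prior ones 4.09. The fit was also run on simulated data in which the added changes were larger than those of the annexins. The recovery of changes as small as those of the annexins was therefore not tested. Coordinates and exons came from GENCODE M21 on GRCm38, in which 54409 identifiers were found and 37 were not. Python 3.11.15, numpy 2.4.6, pandas 2.3.3 and matplotlib 3.10.9 were used for summaries.

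The annexins and all lists were chosen with earlier results of these data known. Named genes were the annexins, 10 partners always named and, per list, the 2 most abundant and the 2 of lowest p; marker genes, Pax7 and likeness examples were added as single values. Alternatives covered the pseudocount, filter, scaling, variance trend, a replicate block and each library left out.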

Additional observations from a re-analysis of the deposited data

How the results depend on the processing

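Under the 13 alternatives, 0 of the tested annexins and 0 members of the 5 lists passed the adjusted threshold. The log2 fold change of Anxa1 lay between 0.49 and 0.58. The gene was selected on these values, so this range is a description. It was 0.5381 under the replicate block, the filter changes and the fit without trend, which cannot change it. Anxa3 and Anxa5 stayed positive, between 0.11 and 0.36 and between 0.07 and 0.19. The sign of the other tested members changed under some alternatives. With 1 library left out, log2 fold changes ranged from -0.0233 to 0.1816 for Anxa2, from -0.0331 to 0.1105 for Anxa6, from -0.1065 to 0.1545 for Anxa4, from -0.0288 to 0.3240 for Anxa7, from -0.1514 to 0.2515 for Anxa8 and from -0.2038 to 0.0511 for Anxa11. The negative values came without knockdown replicate 2 for Anxa2, without control replicate 2 for Anxa7 and Anxa8, without knockdown replicate 1 or control replicate 2 for Anxa4, and without knockdown replicate 2 or control replicate 1 for Anxa6. The positive values of Anxa11 came without knockdown replicate 2 or control replicate 2. Anxa4 had -0.0049 with median-ratio scaling and Anxa8 had -0.0124 with quantile normalization. With the filter at 5 FPKM, Anxa8 and Anxa11 were not tested. The cause of these changes was not tested. Over all genes, 6 were called, against 3 with the replicate block, 0 with no filter and 5 to 15 with 1 library left out, the lone sample being assumed to vary like the other group; 15 were called without knockdown replicate 1. The deviations of same-numbered samples had a correlation of -0.02 over genes, so the numbers were not taken to pair the samples. The interval of Anxa11, the member of lowest level, spans -0.63 to 0.47; the part of depth in its width was not tested.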
